A study of Oryza sativa with 4 samples.

Results

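GBSS1 (LOC4340018), the waxy locus, and MEX1 (LOC4336889), a maltose exporter, are the 2 genes described here, of 17905 rice genes with a probe set of their own on the array. Every probe set annotated to either gene by symbol or synonym was taken, which gave 6 probe sets for GBSS1 and 1 for MEX1, 7 of 22436 probe sets annotated to 1 gene. The genes were singled out because their signals were low in the RNAi spikelets at stage 12, so the differences at that stage are descriptions of what chose them. The samples were whole spikelets of the rice cultivar ZH11, and of ZH11 plants carrying an RNA interference construct against OsCPK21, a calcium-dependent protein kinase. Each genotype was sampled at anther stage 9, when young microspores are free of their tetrads, and at stage 12, when pollen matures. All plants were field-grown in the same conditions without treatment, and the labels name 3 RNAi lines without saying whether their RNA was pooled. Each of the 4 groups was 1 Affymetrix array, so no replicate spread, SD or p-value exists for any value, and this small number of arrays limits how precise each value is.

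Starch is built in plastids from ADP-glucose and laid down as granules of amylopectin, a branched glucan, and amylose, a nearly linear one. GBSS1, the granule-bound starch synthase, makes amylose, and waxy mutants that lack it have endosperm and pollen starch that is almost free of amylose. Rice pollen fills with starch as it matures, and this reserve is often used as a mark of sound pollen. When starch is broken down in leaves, much of it leaves the plastid as maltose. MEX1 is known from Arabidopsis as the envelope protein that carries that maltose into the cytosol, where the enzyme DPE2 uses it.

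Signals are the deposited MAS5 values on a linear scale. A floor was set at 71.1, the mean of the trimmed means of the 4 arrays divided by 5, and signals under it were raised to it before a log2 ratio was taken. A gene is called higher or lower where the ratio is at least 2-fold and the brighter array is above the floor, and where 1 of the 2 signals does not pass the floor the ratio is given as a bound. The target gene, read by 1 probe set, had stage 9 signals of 1940 (ZH11) and 206 (RNAi) and stage 12 signals of 2719 (ZH11) and 17.6 (RNAi). It went with the sample titles, which set the groups. The genotype field of every sample states the opposite genotype. Had that field been right, each genotype direction given here would turn. Median signals of the arrays ran from 75.2 to 85.0, and 14981 to 15569 genes per array were above the floor. The ratio of 3-prime to 5-prime signal of the actin control, a sign of RNA quality, was 3.89 in ZH11 and 4.20 in RNAi at stage 9, and 10.3 and 8.53 at stage 12, and its part in the stage differences was not tested.

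At stage 12, GBSS1 was bright in ZH11 spikelets and close to the floor in RNAi spikelets. Its brightest probe set, Os.11244.3.S1_x_at, which stands for the gene here, had signals of 26.0 (ZH11) and 46.2 (RNAi) at stage 9, both below the floor. At stage 12 it had 5383 in ZH11 and 131 in RNAi. Only the ZH11 stage 12 array was far above the floor on this probe set. Its x suffix means that some probes may also match other sequences, and the other GBSS1 probe sets gave smaller folds. The RNAi signal of Os.11244.3.S1_x_at at stage 12 was 41.0-fold lower than that of ZH11, a log2 ratio of -5.36, and came to 2.44% of it. ZH11 at stage 12 was at least 75.7-fold higher than ZH11 at stage 9, a log2 bound of 6.24. In RNAi the same step had a log2 bound of 0.89, at least 1.85-fold. This bound was not called, and it does not place the step within 2-fold. With log2(signal + 16) in place of the floor the step was 1.24, from a stage 9 signal below the floor.

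**Figure D1:**
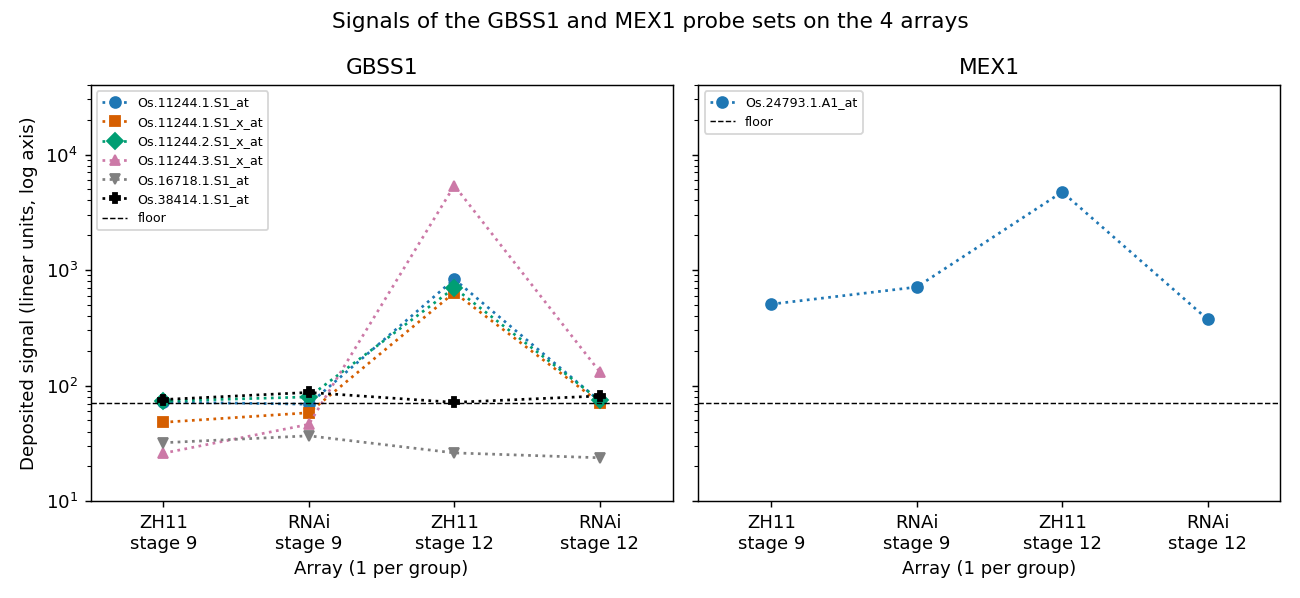
Signals of the 6 GBSS1 probe sets (left) and the MEX1 probe set (right) on the 4 arrays, 1 array per group, on a log axis; each marker is 1 probe set on 1 array, dotted lines join the markers of a probe set, and the dashed line is the floor of 71.1. In GBSS1, 4 probe sets stand well above the floor on the ZH11 stage 12 array and 2 stay near or below the floor on all arrays, while MEX1 is above the floor on all 4 arrays.

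The probe sets of GBSS1 fell into those that followed this pattern and those that stayed low everywhere. Os.11244.1.S1_at had signals of 72.0 (ZH11) and 69.1 (RNAi) at stage 9, and of 832 and 73.5 at stage 12. Os.11244.1.S1_x_at, from the same source sequence, had 48.2 and 58.3 at stage 9, and 639 and 71.1 at stage 12. Os.11244.2.S1_x_at had 73.6 and 79.9 at stage 9, and 700.5 and 74.5 at stage 12. On all 3 of these probe sets the ZH11 stage 12 array was the high one, and the other arrays ran from 48.2 to 79.9. Os.11244.1.S1_x_at was below the floor on both stage 9 arrays and, at 71.05, just below it in RNAi at stage 12. Os.11244.1.S1_at was below the floor in RNAi at stage 9. The suffix x marks probe sets in which some probes may also match other sequences, and Os.11244.1.S1_at, the member of this group without it, gave 11.3-fold lower in RNAi at stage 12 (log2 -3.50). The x probe sets of the same group gave at least 8.99-fold (log2 -3.17) and 9.40-fold (log2 -3.23). With the RNAi array so near the floor, these folds are close to bounds.

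The remaining probe sets of GBSS1 showed no such signal. Os.16718.1.S1_at was below the floor on every array, with 32.1 in ZH11 and 36.8 in RNAi at stage 9 and 26.2 and 23.8 at stage 12, so no fold is given. Os.38414.1.S1_at had 75.8 and 87.3 at stage 9 and 71.6 and 81.4 at stage 12, just above the floor on every array, with log2 genotype ratios of 0.20 and 0.18. Neither separated the stages or the genotypes. In all, 4 of 6 GBSS1 probe sets were lower in RNAi at stage 12, where 6.77% of probe sets above the floor were, and the same 4 were higher at stage 12 than at stage 9 in ZH11, where 16.7% of probe sets were. The gene was chosen on the former contrast, so nothing is read from that count.

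This spread between probe sets was wide beside that of other genes. The log2 genotype ratios of the GBSS1 probe sets at stage 12 spanned 5.54, against a median span of 0.20 over the 3444 genes with several probe sets. Counting GBSS1, 6 of those genes had a span at least as wide. For the stage step in ZH11 the GBSS1 span was 6.32 and 10 genes had one at least as wide, against a median of 0.47. GBSS1 was chosen on a large stage 12 difference, and a gene with small ratios cannot have a wide span. Nothing is therefore read from how few genes had a span as wide. Disagreement of a milder kind was common: of 152 such genes called lower in RNAi at stage 12 by their brightest probe set, 99 (65.1%) had another probe set that was not lower. Which of the GBSS1 probe sets read spliced GBSS1 transcripts was not tested. The median over all 6 probe sets was a log2 ratio of -3.20 at stage 12 and 3.21 for the stage step in ZH11, and over the 4 probe sets that reached 2 times the floor on any array these were -3.37 and 3.39.

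MEX1 was above the floor on every array, so its ratios are measured rather than bounds. Its probe set, Os.24793.1.A1_at, had signals of 507 (ZH11) and 713 (RNAi) at stage 9. At stage 12 it had 4740 in ZH11 and 374 in RNAi. The ZH11 stage 12 array was again the high one, and the RNAi stage 12 array was the lowest of the 4, below both stage 9 arrays. MEX1 was 12.7-fold lower in RNAi than in ZH11 at stage 12, a log2 ratio of -3.66, and held 7.88% of the ZH11 signal. In ZH11 it was 9.35-fold higher at stage 12 than at stage 9 (log2 3.22). In RNAi the stage step went the other way, with a log2 ratio of -0.93, which is 1.91-fold and within the 2-fold limit. At stage 9 RNAi was 1.41-fold above ZH11 (log2 0.49), also within 2-fold. With 1 probe set, no second reading of MEX1 was at hand.

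Both genes thus had the ZH11 stage 12 array as their high array, and they differed at stage 9. GBSS1 was not above the floor in either genotype there on its brightest probe set, while MEX1 was at 7.13 and 10.03 times the floor in ZH11 and RNAi. The log2 genotype ratio at stage 12 minus that at stage 9 was -5.36 for GBSS1 and -4.16 for MEX1, against a median of 0.04 over 16625 genes above the floor on any array. In the order of that difference from the lowest, GBSS1 was gene 110 and MEX1 gene 225. The difference contains the stage 12 ratio on which both genes were chosen, so nothing is read from these places. For GBSS1 it is the stage 12 ratio itself, since both stage 9 signals were raised to the floor. The GBSS1 place rests on its brightest probe set, and the median over all its probe sets, -3.26, was less low than the MEX1 value.

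**Figure D2:**
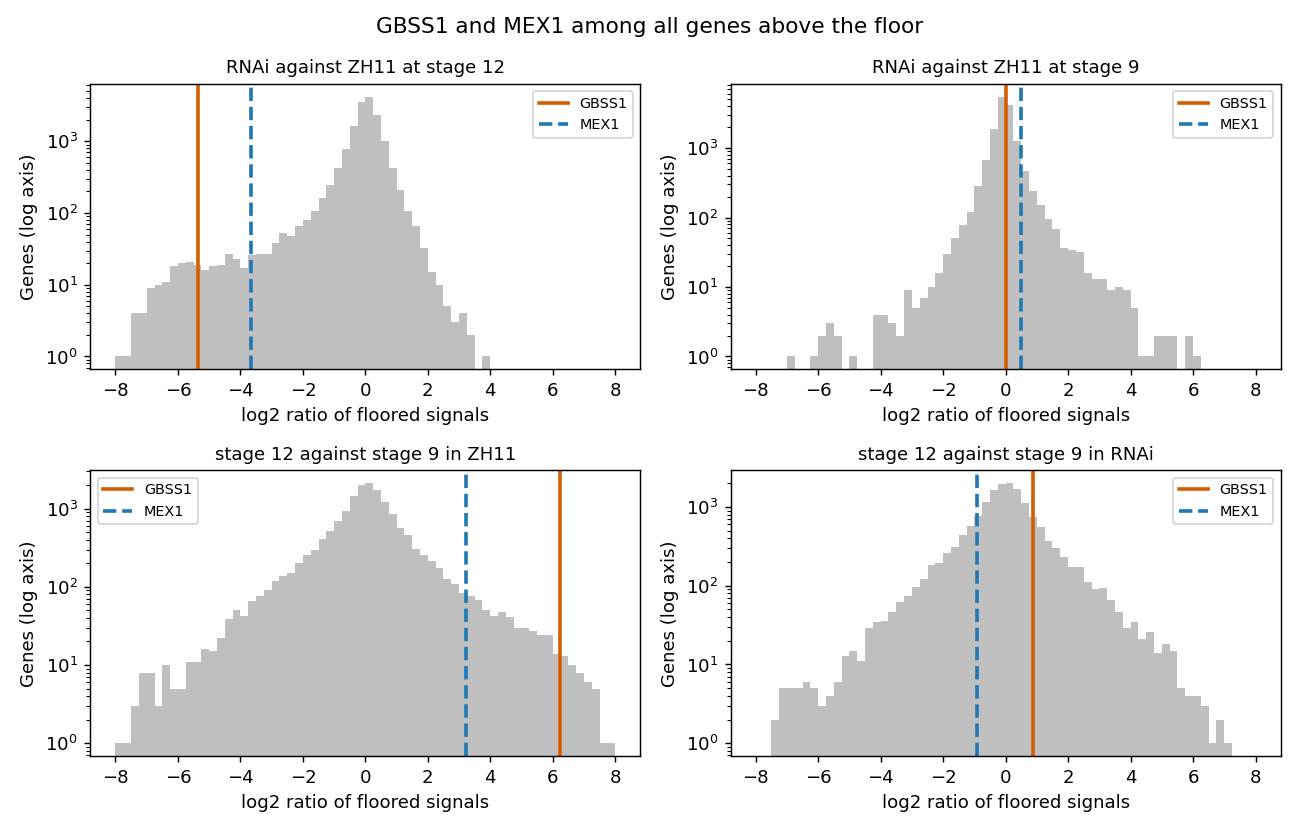
Distribution of log2 ratios over all genes above the floor on either array in the 4 comparisons (grey bars, number of genes on a log axis), with GBSS1 as a solid line and MEX1 as a dashed line. Both members lie in the low tail at stage 12 (-5.36 and -3.66) and in the high tail of the stage step in ZH11 (6.24 and 3.22). In the other comparisons neither was called, and the GBSS1 stage step in RNAi is a lower bound of 0.89.

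Against all genes, both members lay in the tails of the ZH11 stage step and of the stage 12 genotype ratio. From the lowest genotype ratio at stage 12, GBSS1 was gene 109 and MEX1 gene 247 of 15966 genes above the floor, of which 1122 (7.03%) were lower. From the highest stage step in ZH11, GBSS1 was gene 45 and MEX1 gene 526 of 16378 genes above the floor, of which 2804 (17.1%) were higher. In the RNAi stage step MEX1 had 2714 genes below it and GBSS1 had 2716 genes above it, of 16056. At stage 9, 1251 of 15358 genes had a genotype ratio above that of MEX1. The comparisons share arrays (the ZH11 stage 12 array enters both of the first), so their values are set side by side and not related to each other. The genotype calls at stage 12 were 455 higher and 1122 lower on the deposited scale, 28.9% higher, and 674 higher and 963 lower, 41.2% higher, with arrays scaled to a common median (637 higher and 981 lower, 39.4%, after quantile normalization). Median scaling moved the median log2 ratio of genes above the floor on both arrays from 0.03 to 0.18, and the members' own ratios to -5.20 for GBSS1 and -3.51 for MEX1.

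Of other genes of sucrose use and starch metabolism, DPE1, DPE2, PWD, AMY3D, CIN3 and PGIB were lower in RNAi at stage 12 as GBSS1 and MEX1 were, and the chain-elongating starch synthases measured stayed within 2-fold. The list held 65 gene names, of which 30 were matched in the gene table and 28 were on the array. In RNAi against ZH11 at stage 12, 23 of these were above the floor on either array, of which 6 were lower and none was higher, where 7.03% of all genes above the floor were lower and 2.85% higher. The median log2 ratio of the 23 was -0.17, against 0.02 for all genes above the floor. At stage 9, 22 were above the floor with a median of -0.02, and none was lower or higher, where 2.27% and 3.28% of all genes above the floor were. From stage 9 to stage 12 in ZH11, 25 were above the floor, of which 7 were higher and 4 lower, where 17.1% and 15.7% of all genes above the floor were. In RNAi 24 were above the floor, of which 5 were higher and 4 lower, where 14.9% and 15.8% of all genes above the floor were.

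The transglucosidases and the granule dikinase were among the lower genes. DPE2, the cytosolic enzyme that acts on exported maltose in Arabidopsis, had signals of 1383 (ZH11) and 1654 (RNAi) at stage 9, and of 10160 and 4449 at stage 12. It was 2.28-fold lower in RNAi at stage 12, and higher at stage 12 than at stage 9 in both genotypes, 7.35-fold in ZH11 and 2.69-fold in RNAi. DPE1, its plastid counterpart, which rearranges short glucan chains, had 285 and 341 at stage 9, and 1145 and 443 at stage 12. DPE1 was 2.59-fold lower in RNAi at stage 12 and 4.02-fold higher at stage 12 in ZH11, with 1.30-fold in RNAi. PWD, which phosphorylates glucans at the granule surface ahead of breakdown, had 757 and 758 at stage 9, and 3393 and 1239 at stage 12. PWD was 2.74-fold lower in RNAi and 4.48-fold higher at stage 12 in ZH11, with 1.63-fold in RNAi. For all 3 enzymes the stage 9 arrays lay near each other, the ZH11 stage 12 array was the highest and the RNAi stage 12 array lay between, unlike MEX1, whose RNAi stage 12 array was the lowest.

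Among alpha-amylases, which cut starch internally, AMY3D was the bright one at stage 12. It was below the floor at stage 9 and had stage 12 signals of 1560 for ZH11 and 567 for RNAi, a 2.75-fold lower value in the latter. The stage step was at least 22.0-fold in ZH11 and at least 7.98-fold in RNAi. Its other probe set had a log2 genotype ratio of -0.75 at stage 12, and stage steps of 0.75 in ZH11 and 0.00 in RNAi. These are ratios to the floor, and none was called, so the probe sets disagree on the calls. AMY2A had 116 in ZH11 and 185 in RNAi at stage 12, a log2 genotype ratio of 0.67 within 2-fold, and at least 2.60-fold over stage 9 in RNAi. AMY1A, AMY3A and AMY3E were below the floor on all arrays.

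The other measured enzymes that make ADP-glucose or build the glucan stayed within 2-fold between genotypes and stages on the probe sets that stand for them. The chain-elongating starch synthases SS1, SS2A, SS2B and SS2C had log2 genotype ratios at stage 12 of -0.22, -0.27, -0.00 and 0.42. SS1 had signals of 1392 (ZH11) and 1447 (RNAi) at stage 9, and of 1206 and 1033 at stage 12, so no array stood apart. The second probe set of SS2A had a ratio of -1.26, and also passed 2-fold between genotypes at stage 9 (log2 1.04) and in the RNAi stage step (log2 -1.43). SBE1, a branching enzyme, had 1316 and 1220 at stage 9, and 2415 and 1273 at stage 12, a log2 genotype ratio of -0.92, and its 8 probe sets ran from -1.03 to 0.00. AGPS2, a small subunit of the enzyme that makes ADP-glucose, had 2554 and 2637 at stage 9, and 1973 and 2064 at stage 12. FLO6, a starch-binding protein of rice endosperm, had a log2 genotype ratio of -0.17 at stage 12. TPT, the triose phosphate translocator of the plastid envelope, had 0.12.

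**Figure D3:**
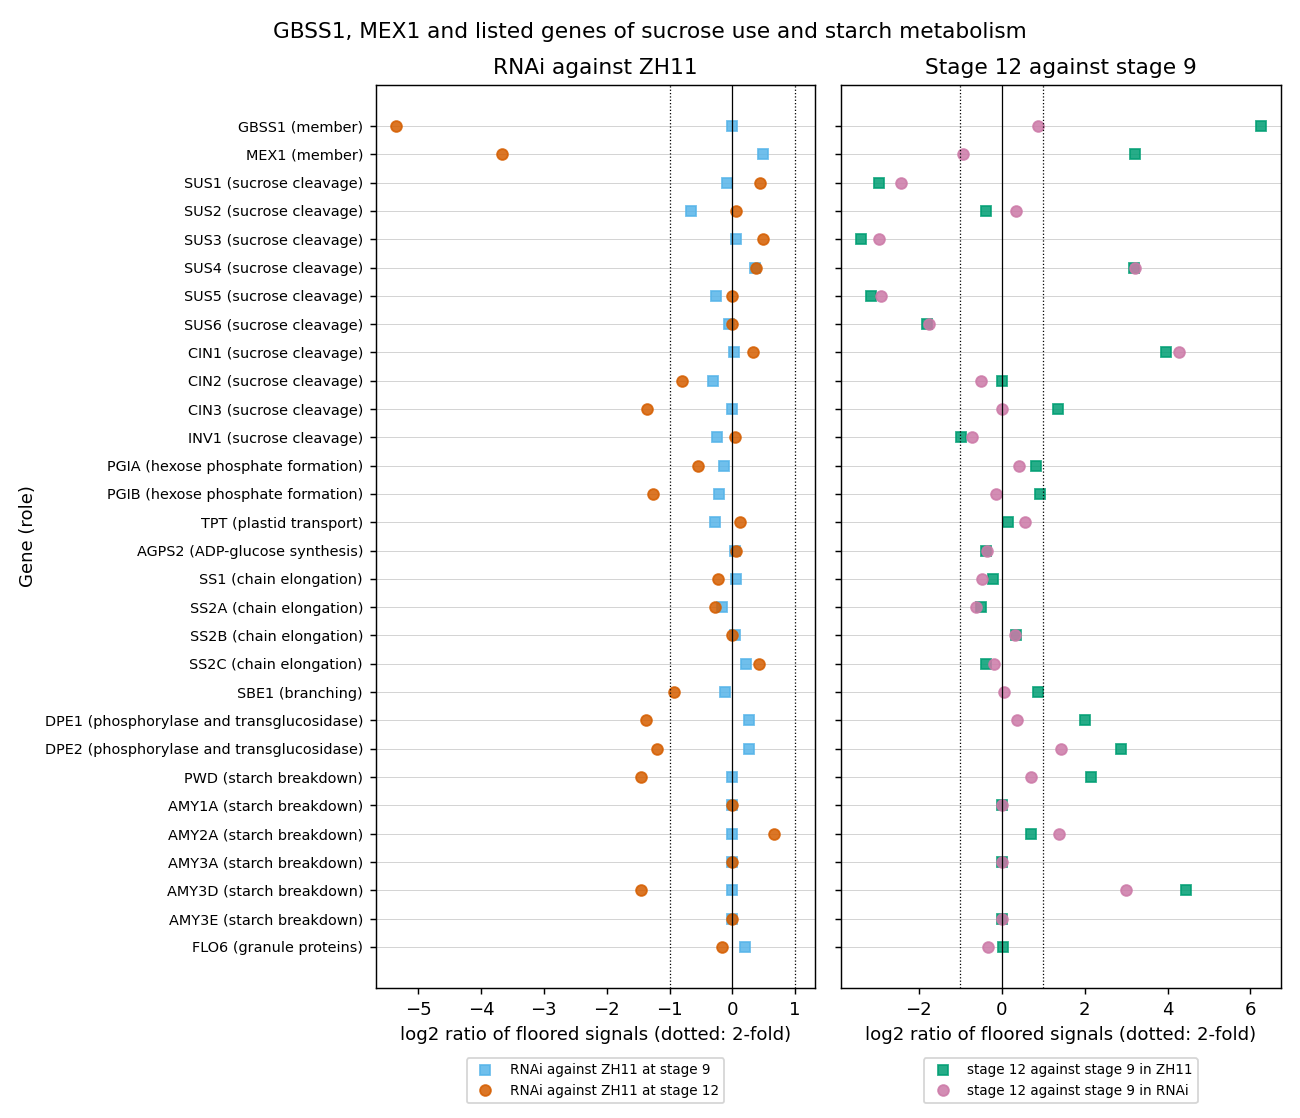
Log2 ratios of GBSS1, MEX1 and the 28 listed genes on the array, 1 row per gene with its role, between genotypes at each stage (left) and between stages in each genotype (right); solid lines mark 0, dotted lines 2-fold, and genes with both arrays at or below the floor stand at 0. GBSS1 and MEX1 lie left of all listed genes at stage 12, and DPE1, DPE2, PWD, AMY3D, PGIB and CIN3 lie beyond 2-fold.

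The list held 10 measured sucrose-cleaving genes, the sucrose synthases and invertases that supply hexoses. At stage 12 against stage 9 in ZH11, 3 were higher and 4 lower, where 17.1% and 15.7% of all genes above the floor were. In RNAi 2 were higher and 4 lower, where 14.9% and 15.8% of all genes above the floor were. Between genotypes at stage 12, 1 of the 10 was lower and none was higher, where 7.03% and 2.85% of all genes above the floor were. SUS5 and SUS6 were below the floor on both of these arrays. SUS1 and SUS3, sucrose synthases, had signals of 9158 and 3153 in ZH11 at stage 9 and of 1177 and 299.5 at stage 12, 7.78-fold and 10.5-fold lower, and in RNAi they were 5.43-fold and 7.77-fold lower. SUS5 and SUS6 were also lower at stage 12, by at least 8.94-fold and 3.52-fold in ZH11 and at least 7.49-fold and 3.40-fold in RNAi. SUS4 and the cell wall invertase CIN1 went the other way in both genotypes: SUS4 was 9.15-fold higher in ZH11 and 9.26-fold in RNAi, and CIN1 15.7-fold and 19.4-fold. Each of these 6 genes had the same direction in both genotypes. SUS1, SUS3, SUS4 and CIN1 were within 2-fold between genotypes at stage 12, where SUS5 and SUS6 could not be called. CIN3, another cell wall invertase, had 183 in ZH11 at stage 12 and was below the floor on the other 3 arrays, at least 2.57-fold lower in RNAi, a call that was lost at 2 times the floor (log2 -0.36). PGIB, a phosphoglucose isomerase, had stage 12 signals of 2953 for ZH11 and 1224 for RNAi, a 2.41-fold difference, and PGIA had a log2 ratio of -0.55. SUS2, CIN2 and INV1 were within 2-fold in all 4 comparisons.

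Beside these values, genes listed as late pollen markers were far lower on the RNAi stage 12 array, and their part in the members' ratios was not tested. The late pollen list (beta-expansins, actin regulators, kinases and others) was drawn up with these results known, so nothing is read from its counts. All 12 genes were lower in RNAi at stage 12, where 7.03% of all genes above the floor were. Their median log2 ratio was -5.57. Their summed signal was 11893 in ZH11 and 11189 in RNAi at stage 9, most of it ACT1, which is bright on all arrays, and 70214 and 5352 at stage 12. On the RNAi stage 12 array 9 of the 12 were at or below the floor: EXPB9, EXPB10, ADF6, ADF9, VLN4, MST5, CPK2, CPK22 and CPK29. In whole spikelets, fewer pollen grains and less RNA per grain cannot be told apart. Of 6 green tissue markers of the spikelet, none was lower or higher in RNAi at stage 12. This is near the shares of all genes above the floor, 7.03% lower and 2.85% higher. The summed signal of these 6 was 20130 in ZH11 and 22180 in RNAi. Of 11 tapetum genes, 1 was lower (OsC6) and 1 higher (RAFTIN1) in RNAi at stage 12, with sums of 3524 for ZH11 and 5138 for RNAi. At stage 9, 5 of the 11 were lower and 1 was higher in RNAi, where 2.27% and 3.28% of all genes above the floor were. None of the 6 green tissue genes was lower or higher there. These lists also moved with stage: 10 of the 11 tapetum genes were lower at stage 12 than at stage 9 in ZH11 and 7 in RNAi, and 5 of the 6 green tissue genes were higher in ZH11 and 4 in RNAi. Of the 12 late pollen genes, 11 were higher at stage 12 in ZH11, while in RNAi none was higher and 1 was lower. Among all genes above the floor, 17.1% were higher and 15.7% lower at stage 12 in ZH11, and 14.9% and 15.8% in RNAi.

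The genes with the profile most like GBSS1 were bright on the ZH11 stage 12 array and near or below the floor on the others. Likeness was the Euclidean distance between log2 profiles over the 4 arrays, each centred on its own mean, among 13565 genes whose brightest array passed 4 times the floor, and the 8 nearest with a gene name are given. CIPK5, a kinase of the CBL-interacting family, was nearest, at a distance of 0.43, with 35.1 in ZH11 and 31.9 in RNAi at stage 9 and 4073 and 96.2 at stage 12. ADF1, an actin-depolymerizing factor, followed at 0.62, and ACA1, a calcium ATPase, at 0.65. Then came BGLU38 (a beta-glucosidase family gene), VLN4 (a villin), CYP88A5 (a cytochrome P450 of gibberellin synthesis), ADF9 and NifU1, at distances of 0.73 to 0.82. Both stage 9 arrays lay below the floor for all 8, which had 3751 to 7845 in ZH11 at stage 12. Of these, ADF1, VLN4 and ADF9 are on the late pollen list. With 4 arrays, many genes share such a profile, and the median distance of all genes to GBSS1 was 5.18.

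MEX1 had no named gene as close. OsTIP2, an aquaporin of the tonoplast family, was nearest at 0.69, where 46 genes without a name lay nearer, and it had 777 in ZH11 at stage 12 and 20.7 to 30.8 on the other arrays. EXP8, an alpha-expansin, followed at 0.70, YSL18 at 0.72, ILL2 at 0.74, YSL8 at 0.78, BGLU34 at 0.79, CSLD5 at 0.93 and OsWNK6 at 0.96. All 8 stood at or near the floor on 3 of the arrays, whereas MEX1 was above it on every array, so the likeness lies in the ZH11 stage 12 array being high. The distance between MEX1 and GBSS1 was 2.72, and 314 genes were nearer to GBSS1 than MEX1 was. From the other side, 3662 genes were nearer to MEX1 than GBSS1 was, and the median distance of all genes to MEX1 was 2.93.

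**Figure D4:**
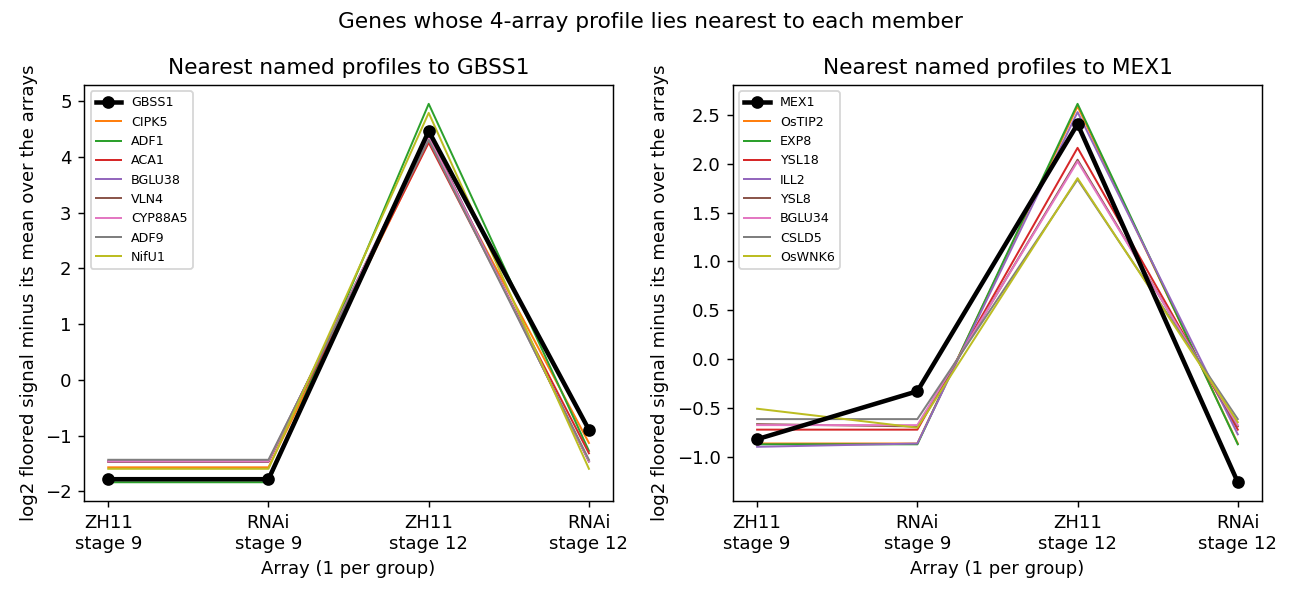
Log2 signal minus its mean over the 4 arrays for GBSS1 (left) and MEX1 (right) in black with markers, and for the 8 nearest named genes of each in thin coloured lines; 1 array per group. The GBSS1 lines lie within distances of 0.43 to 0.82, and MEX1 differs from its neighbours (0.69 to 0.96) by a higher RNAi stage 9 and a lower RNAi stage 12 value.

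The measured genes next to each member on its chromosome were also read. GBSS1 is on chromosome 6, and the 3 measured genes on either side in gene order had log2 genotype ratios of -0.22 to 0.58 at stage 12, none past 2-fold. MEX1 is on chromosome 4, and 5 of its 6 measured neighbours had ratios of -0.26 to 0.31. The other was LOC4336890, the next gene in the table on the higher-coordinate side, which does not overlap MEX1. It had signals of 545 (ZH11) and 758 (RNAi) at stage 9, and of 3695 and 30.1 at stage 12. Its log2 genotype ratio at stage 12 was a bound of -5.70, and its stage step was 2.76 in ZH11 and a bound of -3.41 in RNAi. The order of its 4 arrays was that of MEX1, with ZH11 stage 12 highest, RNAi stage 9 next and RNAi stage 12 lowest. By profile distance it was not among the nearest genes to MEX1, at 2.06 and place 656. It was singled out after its values were seen, from neighbours fixed by gene order.

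**Figure D5:**
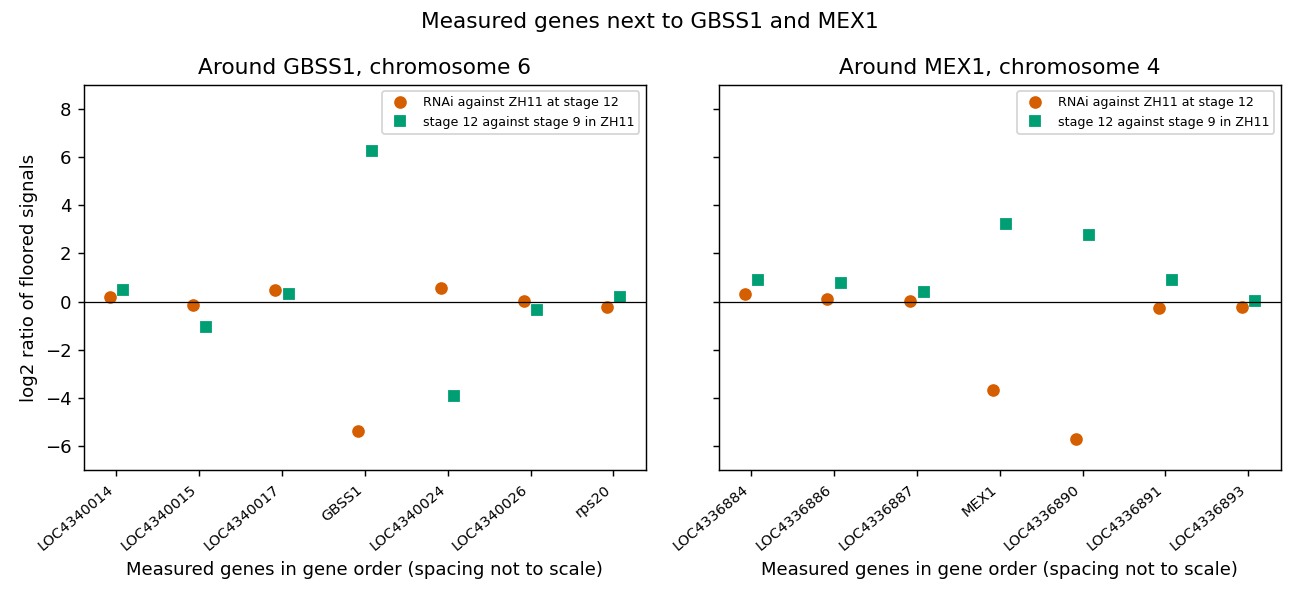
Log2 ratios of GBSS1 (left) and MEX1 (right) and the 3 measured genes on either side of each in gene order, between genotypes at stage 12 (circles) and between stages in ZH11 (squares); spacing is not to scale and unmeasured genes are skipped. Around GBSS1 no neighbour is below -0.22 between genotypes, and LOC4336890 beside MEX1 is at -5.70.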

How the data were processed

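Biotin-labelled cRNA of 4 spikelet samples was hybridised to 1 array each. The deposited intensity values, linear signals per probe set, were made with MAS5, per the submitters' processing notes; the version and the scaling target are not given in the sources used here. Groups followed the sample titles. Probe sets annotated to 1 gene were used (22436, for 17905 genes), with names from the RefSeq gene table of assembly ASM3414082v1, and of several probe sets the brightest on average (mean log2 of the unfloored signals) represented its gene. The floor was the mean over arrays of the trimmed mean (2% off each end) divided by 5. With 1 array per group, values are log2 ratios with no test. Values were computed with Python 3.11.15, pandas 2.3.3 and numpy 2.4.6. The members, the gene lists and the rules for named genes were chosen with earlier results of these data known. The rules took members, listed genes past 2-fold, the 8 nearest named profiles and 3 measured neighbours on each side. Of 65 listed names, 30 were matched by symbol or synonym in the gene table and 28 of these had a probe set. The other 37 were not read, and a name without a match does not mean that its gene is absent from the array. Alternatives were 2 other scalings, a floor of 2 times the main one, log2(signal + 16), other probe sets and 4-fold calls.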

Additional observations from a re-analysis of the deposited data

Results flagged for a closer look

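MEX1 was picked out because its stage step ran in opposite directions in the genotypes, with a log2 ratio of 3.22 from stage 9 to stage 12 in ZH11 and of -0.93 in RNAi. Its genotype ratio likewise turned between stages, from 0.49 at stage 9 to -3.66 at stage 12. With 1 array per group the difference was not tested, and the values of -0.93 and 0.49 are both within 2-fold.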

How the results depend on the processing

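The 4 log2 ratios of MEX1 and the difference between its genotype ratios kept their direction under the other scalings, the floor of 2 times the main one and log2(signal + 16), and moved by less than the spread between probe sets of a gene; MEX1 has 1 probe set, so the probe-set alternatives leave it as it is. GBSS1 depended on the probe set. Its genotype ratio at stage 12 went from -5.36 to -3.20 with the median over its 6 probe sets and to -3.37 over the 4 that passed 2 times the floor, an alternative chosen after seeing the data. Under the same alternatives its stage step in ZH11 went from 6.24 to 3.21 and 3.39, that in RNAi from 0.89 to 0.00 and 0.024, and the difference of genotype ratios from -5.36 to -3.26 and -3.42. At 2 times the floor the stage step of GBSS1 was 5.24 in ZH11 and 0.00 in RNAi, since the raised floor lies above the RNAi signals. With log2(signal + 16) its genotype ratio at stage 9 was 0.57, from signals below the floor, and its stage step in RNAi was 1.24, past 2-fold. Calls at 4-fold fell, by construction, to 524 genes lower in RNAi at stage 12, 152 higher in RNAi at stage 9, 1227 higher at stage 12 in ZH11, 930 higher at stage 12 in RNAi and 0 listed starch genes lower in RNAi at stage 12. CIN3, SUS6 and the AMY2A stage step in RNAi lost their calls at 2 times the floor. With the probe set of the highest single signal standing for each gene, 7 listed starch genes were lower in RNAi at stage 12, in place of 6. No paired analysis was possible because each group was 1 array.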
